A study of Mus musculus with 20 samples.

Results

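The Zic genes Zic1, Zic2, Zic4 and Zic5 were followed across 20 mouse arrays by every probe set that the platform annotation gives to these symbols, 8 of the 45037 probe sets that are not controls and 4 of 18193 genes. Zic5 had 3 probe sets, Zic1 and Zic4 had 2 each and Zic2 had 1. The genes were chosen by family with earlier results of these arrays in view, and the family was selected on the measured level of Zic1, which is lower in gPS cells than in GSC. That contrast is therefore described without a test for all 4 genes, as are the other Zic1 contrasts that involve GSC or gPS cells. Other Zic family genes were not analysed here.

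The gPS group (germline pluripotent stem cells, 5 arrays) was grown out of bright, round colonies that appeared 3 to 4 weeks after about 1000 germline stem cells had been plated per well on fibroblasts, and was expanded under embryonic stem cell conditions. Germline stem cells (GSC, 3 arrays) are the self-renewing cells that found spermatogenesis. They came from testes of OG2 mice, which carry green fluorescent protein under the Pou5f1 (Oct4) promoter, the same strain as the gPS cells, and were kept on inactivated fibroblasts with GDNF, EGF, bFGF and LIF. ESC_like cells (3 arrays) came from testes of mice on postnatal days 0 to 2, were provided by another laboratory and were grown on fibroblasts with leukemia inhibitory factor (LIF). Neural stem cells (NSC, 3 arrays) were derived from Olig2-GFP embryonic stem cells, mouse embryonic fibroblasts (MEF, 3 arrays) from C3H embryos at E12.5, and embryonic stem cells (ESC, 3 arrays) were of the RW4 line, on fibroblasts with LIF. The labels do not name separate cultures, lines or clones within a group, so the errors measure the spread between these arrays only, and the number of arrays limits the precision.

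Zic proteins are zinc finger transcription factors whose DNA-binding fingers resemble those of the Gli proteins, the effectors of Hedgehog signalling. They are best known from the dorsal neural tube, the cerebellum and the neural crest, where they hold cells in a progenitor state. Zic1 and Zic4 lie side by side on chromosome 9 and are read in opposite directions, and Zic2 and Zic5 form such a pair on chromosome 14. In the mouse, Zic1 is needed for normal growth of the cerebellum and Zic2 for patterning of the forebrain.

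The promoter windows of the genes are shown because the neighbours Zic1 and Zic4 differed on these arrays. By its brighter probe set Zic1 was high in 3 groups. Zic4 lay below the array medians in all 6, and Zic5 varied between the stem cell types. Each window runs 5′ to 3′ on the gene's own strand over 300 bases, from RefSeq on build GRCm38.p6, with CG dinucleotides in capitals. The windows are chr9:91365719-91366018 on the minus strand for Zic1, chr9:91368722-91369021 on the plus strand for Zic4 and chr14:122465609-122465908 on the minus strand for Zic5. A window was given for 3 of the 4 genes.
Zic1: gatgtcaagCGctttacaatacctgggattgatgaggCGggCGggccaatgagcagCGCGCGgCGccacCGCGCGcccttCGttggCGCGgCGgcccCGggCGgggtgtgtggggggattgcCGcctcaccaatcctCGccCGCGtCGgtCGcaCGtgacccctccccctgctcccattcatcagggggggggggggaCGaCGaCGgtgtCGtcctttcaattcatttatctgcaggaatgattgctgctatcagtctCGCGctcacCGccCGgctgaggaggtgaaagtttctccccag
Zic4: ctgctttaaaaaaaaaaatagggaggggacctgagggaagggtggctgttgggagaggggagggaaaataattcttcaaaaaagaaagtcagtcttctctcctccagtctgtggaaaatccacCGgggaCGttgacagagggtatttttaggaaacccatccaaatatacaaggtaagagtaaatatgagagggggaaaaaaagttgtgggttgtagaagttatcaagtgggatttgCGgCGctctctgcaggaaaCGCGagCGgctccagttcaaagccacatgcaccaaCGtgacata
Zic5: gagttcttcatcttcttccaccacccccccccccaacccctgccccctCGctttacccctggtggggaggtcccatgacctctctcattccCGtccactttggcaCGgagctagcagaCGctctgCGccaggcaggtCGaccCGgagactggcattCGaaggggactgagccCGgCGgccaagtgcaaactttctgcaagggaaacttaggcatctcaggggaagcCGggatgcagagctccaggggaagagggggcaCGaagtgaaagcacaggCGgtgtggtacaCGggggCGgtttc
The Zic1 window held 31 CG dinucleotides, more than 89.4% of the 32851 promoter windows in the table. The Zic5 window held 15 and the Zic4 window 8, against a median of 7 over all windows. These are features of the reference sequence, and methylation was not measured here.

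The values are log2 intensities that the authors had made with RMA. A level is comparable between arrays for 1 probe set but not between probe sets, since probes differ in brightness. All log2 values together had a median of 4.98, and the array medians ran from 4.95 to 5.04, so a level under the array's median may be background and the size of a difference from it is uncertain. The group labels were set against marker genes. All 10 pluripotency markers had a group mean above 7 in gPS cells, ESC_like cells and ESC, against 4 of 10 in GSC. All 9 germ cell markers were above 7 in GSC and 2 of 9 in gPS cells, and 13 of 14 fibroblast markers were above 7 in MEF. In NSC 5 of 7 measured neural stem cell markers were above 7, while Sox1, an early neural transcription factor, was at 4.28, below the median.

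Zic1 promotes progenitor growth in the dorsal neural tube. By its brighter probe set, 1423477_at, Zic1 was high in GSC and in both somatic groups and below the array medians in the pluripotent groups. That probe set was at 2.75, 3.33, 3.53, 3.05 and 3.37 in gPS replicates 1 to 5, against 9.87, 10.04 and 9.85 in the GSC arrays. The groups lay far apart, with every gPS array below the array median and every GSC array above at least 93.8% of the probe sets of its array. Levels were 4.02, 4.17 and 3.81 in ESC_like cells and 3.16, 3.15 and 3.47 in ESC. They were 9.23, 9.29 and 9.43 in NSC and 7.96, 7.95 and 7.66 in MEF. The order was thus GSC, NSC, MEF, ESC_like, ESC and gPS, and only the neighbours ESC and gPS overlapped.

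The gPS minus GSC log2 difference of this probe set was -6.71 ± 0.15 (SE), and its gPS minus ESC difference was -0.05 (95% interval -0.36 to 0.25). The contrasts that the choice of Zic1 did not use were tested with limma across 18193 genes, calling a gene at a Benjamini-Hochberg adjusted p under 0.05 and at least 2-fold. Zic1 was higher in NSC than in ESC by a log2 difference of 6.06 ± 0.16 (SE, limma adjusted p = 2.53e-17), where 21.4% of all genes were called, 11.4% higher and 10.0% lower. It was also higher in NSC than in MEF, by 1.46 ± 0.16 (SE, limma adjusted p = 2.08e-07), where 17.0% of all genes were called, 8.13% higher and 8.84% lower. Between ESC_like cells and ESC it differed by 0.74 ± 0.16 (SE, limma adjusted p = 0.00176), under the 2-fold threshold, and both means lay below the array median. The other Zic1 probe set, 1439627_at, gave 0.01 ± 0.15 there (SE, limma adjusted p = 0.969 over all probe sets).

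The second Zic1 probe set, 1439627_at, also had GSC, NSC and MEF above the array medians and the pluripotent groups below, but in another order. It was at 5.29, 5.32 and 5.00 in the GSC arrays, at 8.71, 8.50 and 8.45 in NSC and at 6.91, 6.63 and 6.86 in MEF. GSC was here the lowest of these 3 groups and lay just above the array medians. The gPS arrays were at 3.07, 3.13, 3.15, 2.96 and 2.66, all below GSC and overlapping ESC_like cells, at 2.63 to 3.08, and ESC, at 2.65 to 3.04. The gPS minus GSC difference was -2.21 ± 0.14 (SE), against -6.71 in the brighter probe set.

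The Zic1 probe sets therefore differed in direction for GSC against the somatic groups. The GSC minus NSC log2 difference was 0.60 ± 0.16 (SE) in 1423477_at and -3.35 ± 0.15 (SE) in 1439627_at. The GSC minus MEF difference was 2.07 ± 0.16 (SE) in the first and -1.60 ± 0.15 (SE) in the second. In each of these pairs and probe sets the arrays of the groups did not overlap. Contrasts without GSC were closer between the probe sets, with NSC minus MEF at 1.46 and 1.76, NSC minus ESC at 6.06 and 5.69, and gPS minus NSC at -6.11 and -5.56. A gap of 3.66 to 4.50 log2 units between the probe sets was present in all 4 contrasts with GSC, against 0.18 to 0.91 in the others. Those 4 contrasts share the GSC arrays, so they are not separate observations of the gap. Transcript ends and isoforms were not analysed here.

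**Figure D1:**
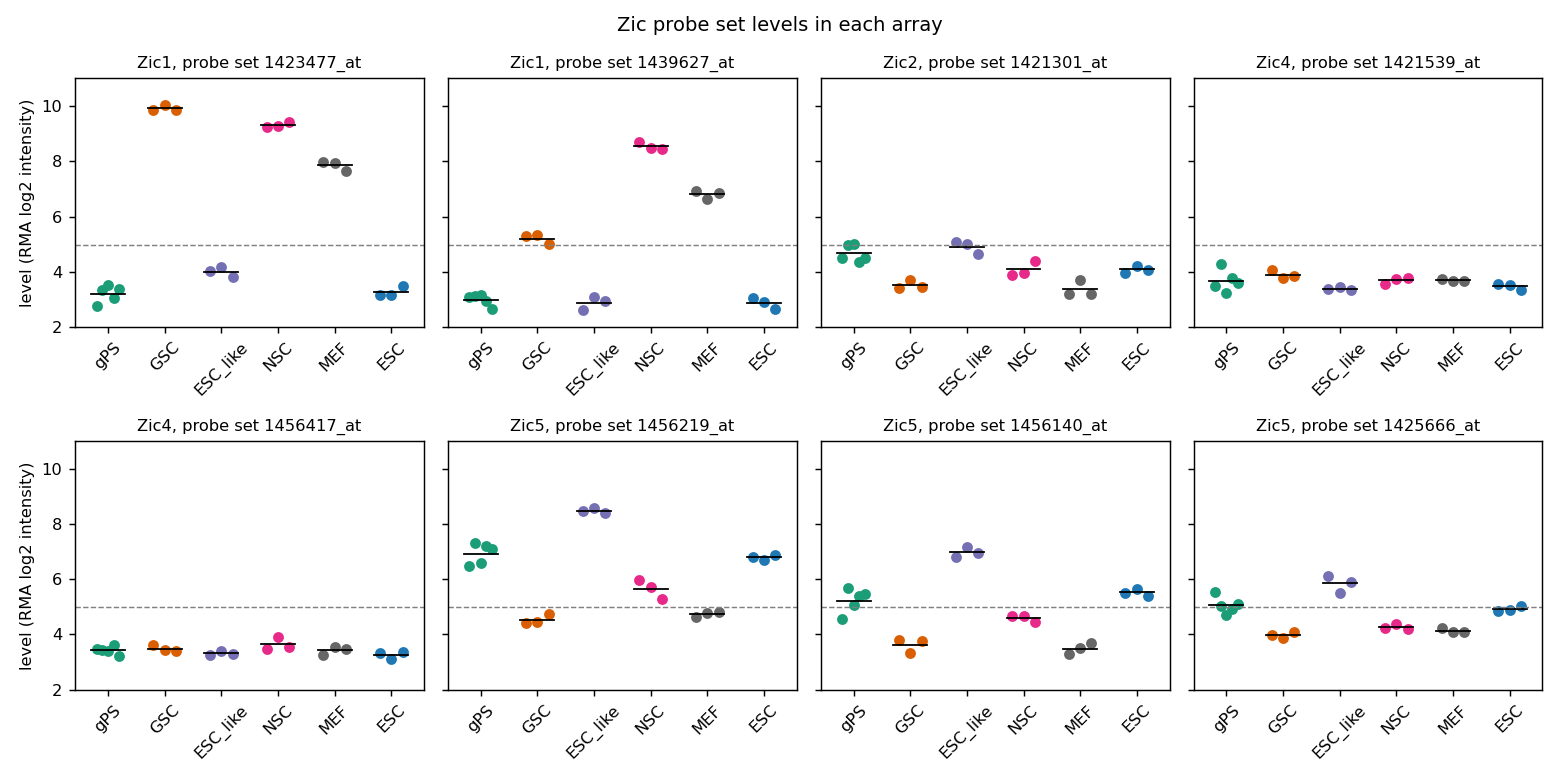
Level (RMA log2 intensity) of each Zic probe set in the 20 arrays, with gPS left of GSC and a bar at each group mean; the dashed line is the median of all values, 4.98. Zic1 is high in GSC, NSC and MEF in probe set 1423477_at, while in 1439627_at GSC lies just above the line, below NSC and MEF. Zic5 is highest in ESC_like cells, and Zic4 stays under the line.

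**Figure D2:**
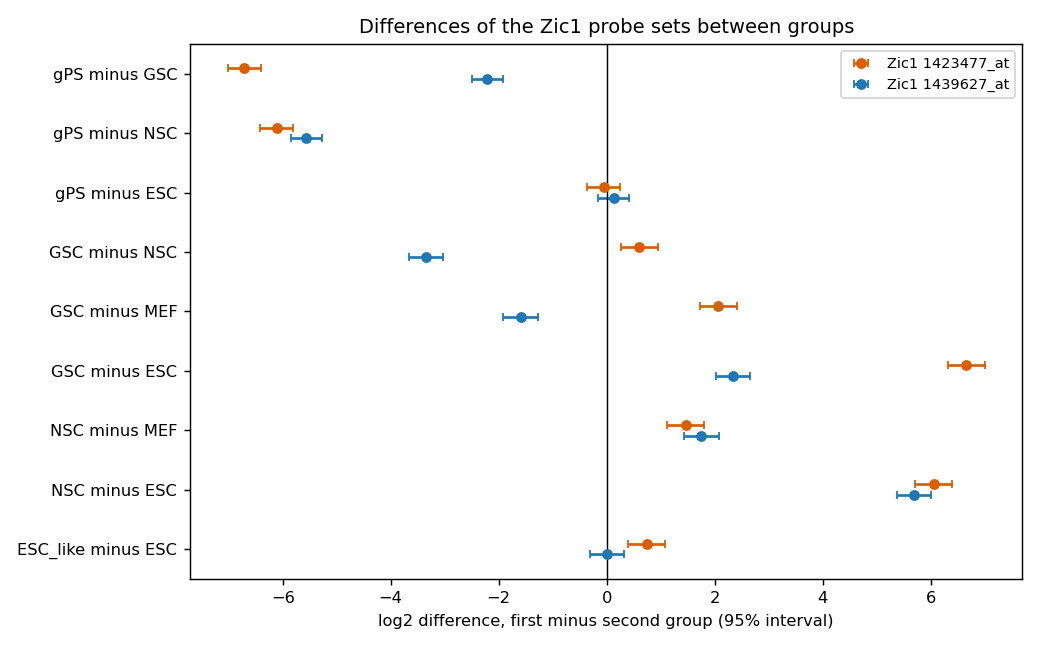
Log2 difference (points, first minus second group) with its 95% interval for both Zic1 probe sets. They lie furthest apart wherever GSC is 1 of the groups, and on opposite sides of 0 for GSC minus NSC (0.60 and -3.35) and GSC minus MEF (2.07 and -1.60). For ESC_like minus ESC they are at 0.74 and 0.01.

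Fibroblasts express Zic1 and lay under the gPS, GSC, ESC_like and ESC cultures, so fibroblast marker levels are given beside it. The mean log2 level of 14 fibroblast markers was 6.78 to 7.86 in the gPS arrays, 6.64 to 6.82 in GSC, 8.20 to 8.47 in ESC_like cells, 10.73 to 10.83 in MEF and 4.95 to 5.19 in ESC. The gPS and GSC ranges of this mean overlapped, but its members differed both ways, with 8 of the 14 higher on average in gPS cells and 6 in GSC. Acta2, a smooth muscle actin gene, was at 10.38 in gPS cells and 7.30 in GSC, and Tagln at 9.45 in gPS cells and 6.15 in GSC. Pdgfra, a growth factor receptor gene, was at 4.86 in gPS cells and 7.23 in GSC. Col3a1 was at 7.50 in gPS cells and 8.82 in GSC, and Dcn at 6.66 in gPS cells and 7.64 in GSC. The arrays overlapped in Col3a1, at 6.52 to 9.44 in gPS cells and 8.70 to 9.04 in GSC. They also overlapped in Dcn, at 5.96 to 7.76 in gPS cells and 7.41 to 7.76 in GSC. The part of fibroblasts in the Zic1 level of GSC was not tested. Zic1 was above the MEF level in GSC by probe set 1423477_at and below it by probe set 1439627_at. For the ESC_like minus ESC difference, 0.74 in 1423477_at and 0.01 in 1439627_at, fibroblast markers were also higher in ESC_like cells. Their part in it was not tested. In bulk samples fewer expressing cells and less RNA per cell cannot be told apart.

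**Figure D3:**
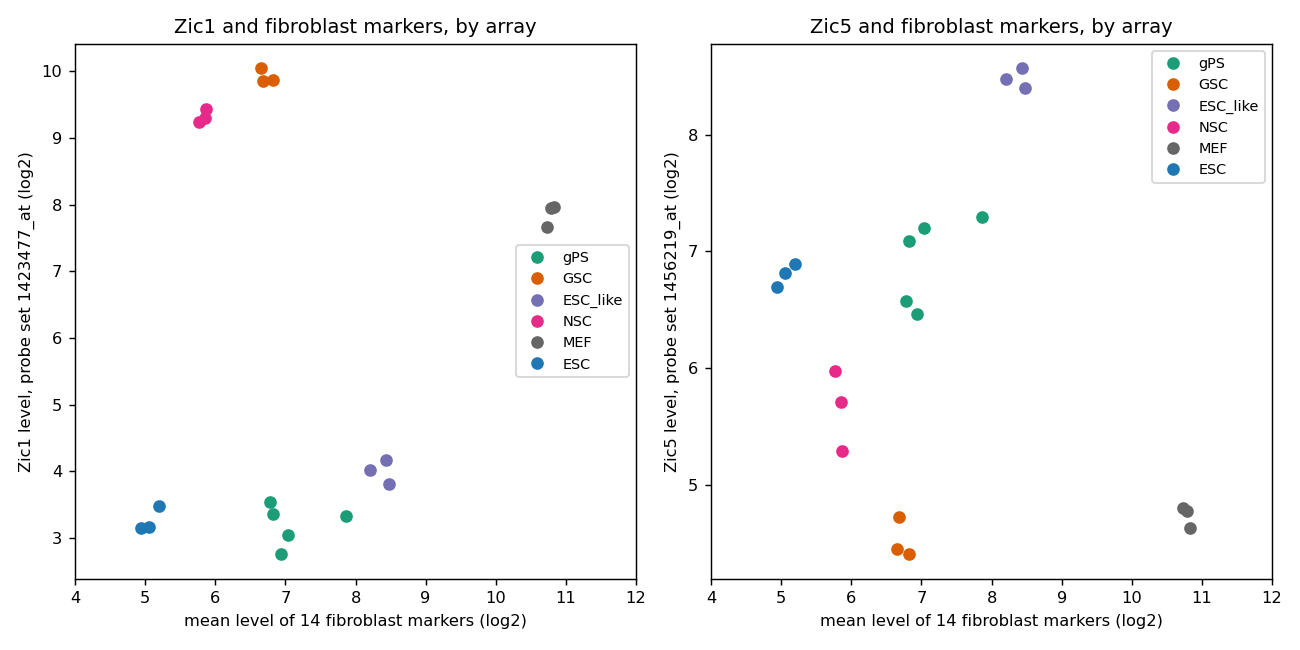
Level (log2) of Zic1 (left) and Zic5 (right) against the mean level of 14 fibroblast markers (log2), each point 1 array. The marker means run from 6.78 to 7.86 in gPS arrays and from 6.64 to 6.82 in GSC, overlapping only at the lower gPS end. For Zic1 probe set 1423477_at these groups sit at 3.21 and 9.92 on average. In MEF, at the highest marker level, Zic5 is at 4.73. The part of fibroblasts in these levels was not tested.

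The mean log2 level of 7 neural stem cell markers was 4.86 to 4.99 in the GSC arrays, against 8.62 to 8.68 in NSC. In GSC Olig2 was at 3.20, Fabp7, a radial glia lipid-binding protein, at 3.69 and Pax6 at 3.78, all below the array median, and only Nes, an intermediate filament gene, was above 7, at 7.91. Nes was also at 8.34 in MEF. Of the other markers, Hes5, a Notch target, was at 5.87 in GSC and 5.13 in NSC, Slc1a3, a glutamate transporter gene, at 5.70 in GSC and 9.14 in NSC, and Sox1 at 4.26 in GSC and 4.28 in NSC. The 9 measured testis somatic markers had a mean of 4.74 to 4.88 in GSC, with no group mean above 7. Among them Wt1, a Sertoli cell transcription factor gene, was at 5.87 to 7.19 in the GSC arrays, with a mean of 6.42, against means of 4.00 in gPS cells, 4.80 in ESC_like cells, 3.61 in NSC, 4.69 in MEF and 3.90 in ESC. Wt1 thus moved with Zic1 between gPS cells and GSC, while the other 8 of the 9 markers had a higher mean in gPS cells. The part of testis somatic cells in the Zic1 level was not tested.

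Zic4, the neighbour of Zic1, lay below the array median in every array. Probe set 1421539_at ran from 3.22 to 4.27 and probe set 1456417_at from 3.10 to 3.91, and all 40 values were below the medians of their arrays. The first was at 3.50, 4.27, 3.22, 3.78 and 3.60 in gPS cells, at 4.06, 3.79 and 3.85 in GSC and at 3.57, 3.74 and 3.79 in NSC. Neighbouring groups in the order of means overlapped in every case for both probe sets. The largest tested difference was GSC minus ESC, at 0.43 ± 0.17 (SE, limma adjusted p = 0.046), under the threshold of 2-fold. Probe set 1456417_at differed by 0.38 ± 0.13 between NSC and ESC (SE, limma adjusted p = 0.0282 over all probe sets), also under 2-fold. This held in NSC and GSC too, where Zic1 was high by probe set 1423477_at. Since no group had either Zic4 probe set above the median, absent RNA and insensitive probe sets cannot be told apart.

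Zic5, known from neural crest and neural tube development in the mouse, had a different pattern, with its highest level in ESC_like cells and its lowest in GSC and MEF. Its brightest probe set, 1456219_at, was at 6.46, 7.30, 6.57, 7.20 and 7.09 in gPS cells, against 4.40, 4.45 and 4.72 in GSC. It was at 8.47, 8.57 and 8.40 in ESC_like cells, 5.97, 5.71 and 5.29 in NSC, 4.63, 4.77 and 4.80 in MEF and 6.82, 6.69 and 6.89 in ESC. In the order ESC_like, gPS, ESC, NSC, MEF and GSC, gPS overlapped ESC, and MEF overlapped GSC. The other neighbours were apart.

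Zic5 was the only 1 of the 4 genes called between ESC_like cells and ESC, where 7.21% of all genes passed the thresholds, 5.11% upward and 2.10% downward. It was higher in ESC_like cells by 1.68 ± 0.19 (SE, limma adjusted p = 1.16e-06), a 3.21-fold difference. The other probe sets gave 1.45 ± 0.21 for 1456140_at and 0.94 ± 0.17 for 1425666_at (SE, limma adjusted p = 1.96e-05 and 0.000273 over all probe sets), the last just under 2-fold. Fibroblast markers were also higher in ESC_like cells than in ESC, and MEF had Zic5 below the array median, at 4.73 ± 0.09 (SD, n = 3). The part of fibroblasts in the Zic5 difference was not tested. The ESC_like cells came from another laboratory, so cell type, cell line and laboratory cannot be told apart in any comparison with them.

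The gPS cells were lower than ESC_like cells in Zic5 by a log2 difference of -1.56 ± 0.17 (SE, limma adjusted p = 1.10e-06), where 4.85% of all genes were called, 1.11% higher and 3.74% lower. It was the 1 member called. Probe set 1456140_at gave -1.75 and 1425666_at -0.79, the latter under 2-fold and with overlapping arrays. The gPS minus ESC difference was 0.13 (95% interval -0.24 to 0.49, limma adjusted p = 0.66), and none of the 4 genes was called in that comparison, in which 4.49% of all genes passed the thresholds, 2.36% upward and 2.13% downward. The 3 Zic5 probe sets lay from -0.29 to 0.15 for gPS minus ESC. Both comparisons use the gPS arrays, and in the comparison with ESC_like cells the cell type and the laboratory cannot be told apart.

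In GSC Zic5 was lower than in ESC by -2.28 ± 0.19 (SE, limma adjusted p = 2.75e-09), where 23.3% of all genes passed the thresholds, 13.1% upward and 10.2% downward. The other probe sets were at -1.89 and -0.93, the latter under 2-fold. As a description of the contrast that chose Zic1, the gPS minus GSC difference of Zic5 was 2.40 ± 0.17 (SE), with 1.60 and 1.08 in the other probe sets. In that contrast, in which 20.0% of all genes were called, 9.10% higher and 10.9% lower, Zic1 and Zic5 thus lay on opposite sides of 0.

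Between GSC and NSC, Zic5 was lower in GSC by -1.13 ± 0.19 (SE, limma adjusted p = 3.55e-05), where 26.8% of all genes were called, 14.6% higher and 12.2% lower. Without NSC replicate 1 the difference was -0.97, which ends the call. NSC were lower than ESC by -1.14 ± 0.19 (SE, limma adjusted p = 4.03e-05), and by -0.96 without NSC replicate 3, which ends the call. The NSC minus MEF difference of 0.92 ± 0.19 (SE, limma adjusted p = 0.000509) was under 2-fold, and reached 1.11 without NSC replicate 3. Probe set 1456140_at gave 1.11 ± 0.21 with all arrays (SE, limma adjusted p = 0.000177 over all probe sets), above 2-fold. Probe set 1425666_at gave 0.13. The gPS minus NSC difference was 1.27 ± 0.17 (SE, limma adjusted p = 2.21e-06), where 22.6% of all genes were called, 11.3% higher and 11.4% lower. Between GSC and MEF, where 28.4% of all genes were called, 15.5% higher and 12.9% lower, Zic5 differed by -0.21 (95% interval -0.61 to 0.20, limma adjusted p = 0.394). With the mean of the 3 probe sets in place of the brightest, the GSC minus NSC, NSC minus ESC and gPS minus NSC differences were -0.79, -0.91 and 0.90, all under 2-fold. Singly, probe sets 1456140_at and 1425666_at gave -0.96 and -0.28 for GSC minus NSC and -0.93 and -0.65 for NSC minus ESC. For gPS minus NSC they gave 0.63 and 0.79, and none of these values reached 2-fold.

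Zic2, the neighbour of Zic5 and a gene of forebrain patterning, was dim throughout. Its probe set 1421301_at was at 4.49, 4.99, 4.99, 4.37 and 4.49 in gPS cells, against 3.41, 3.68 and 3.47 in GSC. It was at 5.06, 5.02 and 4.64 in ESC_like cells, 3.90, 3.97 and 4.39 in NSC, 3.20, 3.70 and 3.21 in MEF and 3.97, 4.23 and 4.06 in ESC. Of the 20 values, 4 were above the median of their array, 2 in gPS cells and 2 in ESC_like cells. The gPS and GSC arrays did not overlap, with a described difference of 1.15 ± 0.17 (SE).

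The tested Zic2 differences were all under 2-fold. ESC_like cells were at 0.82 ± 0.19 above ESC (SE, limma adjusted p = 0.00222) and gPS cells at 0.58 ± 0.17 above ESC (SE, limma adjusted p = 0.014). GSC minus ESC was -0.57 ± 0.19 (SE, limma adjusted p = 0.015), and the NSC minus ESC difference was 0.00 (95% interval -0.39 to 0.39). GSC and MEF, the groups lowest in Zic5, were also lowest in Zic2, and ESC_like cells had the highest mean of both. The comparisons against ESC share the 3 ESC arrays.

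**Figure D4:**
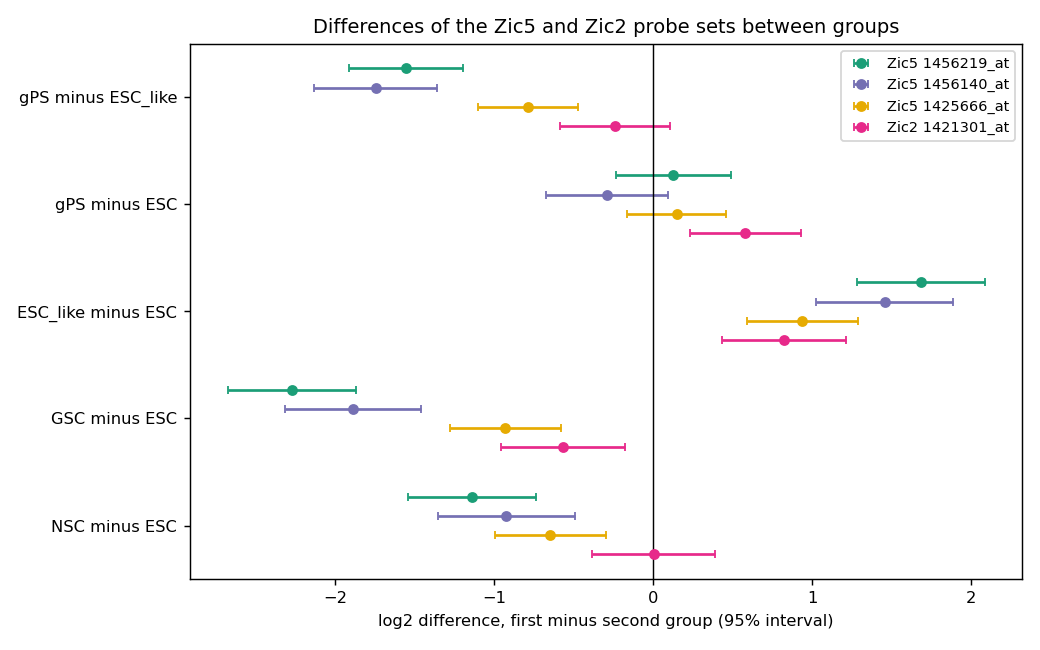
Log2 difference (points, first minus second group) with its 95% interval for the Zic5 and Zic2 probe sets. The Zic5 probe sets share their sign in each comparison shown except gPS minus ESC (-0.29 to 0.15), and ESC_like minus ESC ranges from 0.82 for Zic2 to 1.68 for Zic5.

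Genes beside the pairs on the chromosomes were compared by the 3 nearest measured genes on each side of each member, 13 in all. Between gPS cells and GSC 2 of the 13 were higher and 1 lower, against 20.0% of all genes called in either direction. Tbc1d2b, next to Zic1, was at 6.15 in gPS cells, 7.71 in GSC, 6.12 in NSC and 7.38 in MEF, and Plscr1, on the far side of Zic4, was at 7.17 in gPS cells and 4.97 in GSC. Beside Zic5 and Zic2, Clybl was at 7.73 in gPS cells and 8.21 in GSC, and Pcca, an enzyme of propionate breakdown, at 8.07 in gPS cells and 6.09 in GSC. The noncoding transcript 2610035F20Rik, which lies between Zic5 and Zic2, was at 3.31 to 3.52 in all 6 groups.

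By Pearson correlation over the 20 arrays, among 9396 genes with a group mean above 7, the gene most like Zic1 was Nsmf (r = 0.987), followed by Acat1, Atxn7 and Dync1li2 (each r = 0.978) and Senp7 (r = 0.977). Nsmf was at 6.76 in gPS cells, 10.75 in GSC, 10.84 in NSC, 9.84 in MEF and 6.76 in ESC. Senp7, a SUMO protease gene, was at 4.96 in gPS cells, 8.24 in GSC and 7.74 in NSC. For Zic5 the genes most alike were Psmd11 (r = 0.953), Rdm1 (r = 0.949), Rhox5 (r = 0.944), Setd1b (r = 0.942) and Uxt (r = 0.939). Psmd11, a proteasome subunit gene, varied little, at 12.05 in gPS cells, 11.72 in GSC and 12.44 in ESC_like cells. Rhox5, a homeobox gene, was at 9.33 in gPS cells, 4.54 in GSC, 11.78 in ESC_like cells and 9.39 in ESC. The arrays fall into 6 groups, so these values reflect group levels and carry no test.

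The related zinc finger genes Gli1, Gli2, Gli3, Glis1, Glis2 and Glis3 differed in both directions between gPS cells and GSC. Of these 6, 2 were higher, 2 lower and 2 not called, against 9.10% of all genes called higher and 10.9% lower, and their median difference was -0.29 against 0.02 over all genes. Glis3, a transcription factor of the pancreas and kidney, was at 3.97 in gPS cells and 8.89 in GSC, a change of -4.93 ± 0.18 (SE). Gli2, the main activator of Hedgehog targets, was at 8.77 in gPS cells and 5.24 in GSC, a change of 3.53 ± 0.18 (SE). Gli1, itself a Hedgehog target, was higher in gPS cells by 1.38 and Gli3 was lower by a difference of -1.07, while Glis2 differed by -0.06.

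Of 13 measured Hedgehog pathway genes 1 was lower in gPS cells than in GSC, 0 were higher and 12 were not called, against 10.9% of all genes lower and 9.10% higher. The member called was Disp1, needed for ligand release, at 6.10 in gPS cells and 7.42 in GSC. Between gPS cells and ESC 1 of the 13 was lower and 0 higher, against 2.13% and 2.36% of all genes. It was the receptor gene Ptch1, at 9.35 in gPS cells and 11.19 in ESC (-1.85 ± 0.18, SE), and Gli1 was lower by a difference of -1.79 ± 0.20 (SE). In ESC_like cells Ptch1 and Gli1 were lower than in ESC as well, by differences of -2.03 and -2.55, and Gas1, a Hedgehog co-receptor, was higher by 1.24, where 5.11% of all genes were higher and 2.10% lower. These comparisons share the ESC arrays. In NSC against ESC 3 of the 13 were higher, Gas1 by 5.67, Smo by 2.35 and Cdon by 2.13, and 1 was lower, Ptch1, by a difference of -1.95, against 11.4% of all genes higher and 10.0% lower.

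Among 14 measured regulators of the dorsal neural tube and neural crest, where Zic genes act in the embryo, 1 was higher and 1 lower in gPS cells than in GSC, against 9.10% and 10.9% of all genes, a share no larger than that background. Foxd3 was higher by 1.58 ± 0.28 (SE) and Msx2 lower by a difference of -1.09 ± 0.10 (SE), while Pax7 differed by 0.00. The median of the 14 was 0.08. Between gPS cells and ESC none of the 14 was called by limma, at 0 higher and 0 lower against 4.49% of all genes.

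Of 19 measured neural progenitor genes, 3 were higher and 1 lower in gPS cells than in GSC (median 0.18), near the 20.0% of all genes called in either direction. The 1 that was lower, as Zic1 was, was the transcription factor gene Lhx2, at 3.08 in gPS cells and 5.80 in GSC. Prom1 was higher by 3.69 ± 0.36 (SE), and Olig1 (2.28 ± 0.86, SE) and Pax6 (1.06 ± 0.23, SE) were higher too, with Pax6 at 4.84 in gPS cells, under the median. In NSC against ESC 14 of the 19 were higher and 0 lower (median 2.44), against 11.4% and 10.0% of all genes.

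Of 13 measured genes of the primed epiblast, the state that follows naive pluripotency, 6 were higher and 2 lower in gPS cells than in GSC, against 9.10% and 10.9% of all genes, with a median of 0.83. Nodal was higher by 5.10 ± 0.18 (SE) and Otx2 by 3.04 ± 0.28 (SE). Sox3, which was at 5.74 in gPS cells and 9.49 in GSC, and Pou3f1, at 5.68 in gPS cells and 7.34 in GSC, were lower, as Zic1 was. Compared with ESC, 0 of the 13 were higher in gPS cells and 1 was lower, Otx2, by a difference of -1.68 ± 0.28 (SE). The shares of all genes were 2.36% higher and 2.13% lower. In ESC_like cells against ESC, where Zic5 was higher, 3 of the 13 were higher and 1 lower, against 5.11% and 2.10% of all genes. Cdh2 was higher by 1.89 ± 0.18 (SE), Etv4 by 1.12 ± 0.30 (SE) and Pou3f1 by 1.03 ± 0.24 (SE), Grhl2 was lower by a difference of -1.05 ± 0.29 (SE), and Nodal differed by 0.06. In MEF Cdh2 was at 10.35, Etv4 at 6.86 and Pou3f1 at 3.19, and the part of fibroblasts in these differences was not tested.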

How the data were processed

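RNA of 20 mouse cell samples was measured on Affymetrix arrays. The deposited values are log2 intensities for each probe set, computed by the authors with RMA according to the submitters' processing notes, with no version given. Joint processing of the 20 arrays is not given in the sources used here. Nothing was rescaled. From 45101 probe sets, 64 controls were dropped. Among the rest, 34945 carried 1 gene symbol, 932 several and 9160 none, and 34741 symbols were matched to RefSeq. For each of 18193 genes the probe set brightest on average stood for the gene.

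A model with 1 mean for each of 6 groups was fitted with limma 3.58.1 (R 4.3.3; lmFit, eBayes). Calls required an adjusted p (Benjamini-Hochberg, all genes) below 0.05 and a difference of 2-fold or more. Member probe sets were tested in the same way over 45037 probe sets. SE is limma's standard error. The fit was tested on simulated data. Figures were drawn with matplotlib 3.10.9 in Python 3.11.15.

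The members and lists were chosen with earlier results of these data known. The text names the members, up to 4 called genes of a list with the largest differences and up to 2 not called with the smallest per comparison, the 5 genes most like a member whose highest group mean exceeds 7, and the 3 nearest measured genes on each side. Replicate numbers were checked for pairing. Over 45 same-numbered pairs of arrays the deviations from group means correlated with a median of 0.02, and 7 pairs exceeded 0.1, so the numbers were not treated as pairs. Alternatives were quantile normalization, centring, a variance trend with robust fit, array weights, only the compared groups, averaged probe sets of a gene, all probe sets, dim genes left out, no minimum fold, a block and leave-one-out fits.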

Additional observations from a re-analysis of the deposited data

How the results depend on the processing

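Of the results for the 4 genes under all alternatives, 616 kept their direction and their side of the threshold, or moved by less than the replicate spread. Without the minimum fold, calls were added for Zic1 between ESC_like cells and ESC (0.74), for Zic4 in GSC minus ESC (0.43), for Zic5 in NSC minus MEF (0.92), and for Zic2 in ESC_like minus ESC (0.82), gPS minus ESC (0.58), gPS minus NSC (0.58), NSC minus MEF (0.72), GSC minus ESC (-0.57) and GSC minus NSC (-0.57). With all probe sets of a gene averaged, Zic1 moved to -4.46 in gPS minus GSC, -0.34 in gPS minus ESC_like, -5.84 in gPS minus NSC, 4.50 in GSC minus ESC, -1.37 in GSC minus NSC (opposite in sign) and 0.24 in GSC minus MEF. The same average put Zic5 at 1.69 in gPS minus GSC and at -0.007 in gPS minus ESC (opposite in sign), and ended its calls in gPS minus NSC (0.90), GSC minus NSC (-0.79) and NSC minus ESC (-0.91). These moves follow from the differing probe sets.

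The sign also turned for differences near 0, whose cause was not tested: Zic2 in NSC minus ESC with array weights (-0.0275), Zic4 in ESC_like minus ESC after quantile normalization (0.0262) and in NSC minus MEF after centring (-0.0078), Zic1 probe set 1439627_at in ESC_like minus ESC with array weights (-0.11), and Zic1 in gPS minus ESC with array weights (0.0933) and with averaged probe sets (0.0365). With the replicate number as a block, Zic5 in gPS minus ESC was -0.0219, and no other call or sign of the 4 genes changed.

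Leaving out 1 array at a time, Zic5 ranged from -1.32 to -0.97 in GSC minus NSC, from -1.30 to -0.96 in NSC minus ESC and from 0.77 to 1.11 in NSC minus MEF. Ranges that crossed 0 were -0.136 to 0.0593 for Zic1 in gPS minus ESC, -0.15 to 0.10 for Zic2 in NSC minus ESC, -0.0324 to 0.0784 for Zic4 in NSC minus MEF and -0.177 to 0.0854 for Zic4 in gPS minus NSC. For single probe sets they were -0.0081 to 0.218 for Zic1 1439627_at in gPS minus ESC_like and -0.103 to 0.0101 for Zic4 1456417_at in gPS minus GSC, and in ESC_like minus ESC -0.10 to 0.14 for Zic1 1439627_at and -0.026 to 0.112 for Zic4 1456417_at, and for Zic4 1456417_at in GSC minus MEF -0.024 to 0.125. Over all genes, 202 to 2827 were called per direction. All probe sets in place of genes gave 382 to 5133, and no minimum fold gave 2073 to 5624. Under the other alternatives these counts stayed within 1.5 times. Levels near the array median, all of Zic4 and most of Zic2, limit what small differences show.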
